A study of Mus musculus with 2 samples.

Results

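Heart RNA of transgenic (TG) mice that overexpress miR-143 and miR-145 was examined for 10 genes of the NRF2 system that lie outside glutathione metabolism. They were the regulator genes Nfe2l2, Keap1 and Bach1, the detoxifying enzyme genes Nqo1, Aox1 and Ephx1, the heme degradation genes Hmox1 and Blvrb, and the ferritin genes Ftl1 and Fth1. A gene was taken when the platform's symbol of a probe, old or updated, matched 1 of these names. All 10 were found, with 1 probe each, among the 17485 genes and unnamed probes that were measured on both arrays. The groups were a 3-month old TG heart of line L9, a 3-month old TG heart of line L19, and the heart of a 3-month old non-transgenic (NTG) control mouse. Each TG line carries the human genes of miR-143 and miR-145 under the αMHC promoter, which drives the transgene in cardiomyocytes. The lines were made in B6D2F1 eggs and backcrossed to C57BL/6J. On each of 2 Toray 3D-Gene 2-colour arrays, 1 TG heart in Cy3 was hybridized against the NTG heart in Cy5, with no dye swap. Since the labels name the NTG RNA alike on both arrays, it was taken as 1 control sample that all ratios below share. The series gives 1 control mouse per array and does not say outright that it was the same mouse. If it was not, the gap between the NTG readings below would include a difference between mice.

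NRF2, the protein of Nfe2l2, is a transcription factor that binds antioxidant response elements together with a small MAF protein and turns on genes for detoxification, reducing power and iron storage. KEAP1 bridges NRF2 to the CUL3 ubiquitin ligase and so keeps it short-lived until electrophiles modify KEAP1, whereas BACH1 occupies the same elements as a repressor and leaves them when it binds heme. The activity of NRF2 is set largely by the stability of its protein, which an mRNA array does not measure.

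The bases just before the annotated start are shown for the regulator gene Nfe2l2, for both genes that stood farthest above NTG (Aox1 and Ephx1) and for the gene on which the lines differed most (Nqo1). They are RefSeq sequences of build GRCm38.p6, written 5′ to 3′ on the strand of the gene and cut where the annotated gene begins, which leaves 90 bases for Aox1 and 250 for the others. Capitals mark a match to the antioxidant response element core TGACNNNGC or to the AP-1 element TGACTCA, both of which were searched on both strands. The letters TGACTCA followed by GC would match both.
Nfe2l2, chr2:75704664-75704913, minus strand: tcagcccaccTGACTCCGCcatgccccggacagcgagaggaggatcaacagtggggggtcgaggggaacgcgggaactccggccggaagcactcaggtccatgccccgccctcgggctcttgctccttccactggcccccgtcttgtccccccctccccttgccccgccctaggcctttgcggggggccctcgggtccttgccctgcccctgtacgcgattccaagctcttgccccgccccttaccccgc
Aox1, chr1:58029719-58029808, plus strand: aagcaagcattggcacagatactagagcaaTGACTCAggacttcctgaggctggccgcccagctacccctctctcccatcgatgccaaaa
Ephx1, chr1:181017570-181017819, minus strand: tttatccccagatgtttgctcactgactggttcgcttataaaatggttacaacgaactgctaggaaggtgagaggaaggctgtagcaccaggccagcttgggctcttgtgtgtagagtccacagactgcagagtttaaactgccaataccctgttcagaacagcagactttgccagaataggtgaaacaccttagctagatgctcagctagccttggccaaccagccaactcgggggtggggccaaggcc
Nqo1, chr8:107403206-107403455, minus strand: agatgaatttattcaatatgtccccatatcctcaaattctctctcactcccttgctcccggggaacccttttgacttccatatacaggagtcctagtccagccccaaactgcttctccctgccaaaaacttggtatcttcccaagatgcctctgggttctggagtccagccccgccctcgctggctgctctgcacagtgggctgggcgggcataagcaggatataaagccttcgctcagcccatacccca
Of the 10 genes, 9 were in the table of promoter windows, with 11 windows between them. In the 250 bases upstream of the start site, TGACNNNGC was found in 1 of these 11 windows, that of Nfe2l2 (TGACTCCGC at -240 to -232), and in 10.2% of all 32851 windows. TGACTCA was found in 1 of the 11 windows, that of Aox1 (-220 to -214 from the start site in the table), and in 4.46% of all windows. These matches describe letters in a short window and say nothing of binding.

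Values are given as signals, that is, spot intensities after subtraction of the blank spots in each channel, with the Cy3 channel divided by the median Cy3 to Cy5 ratio of its array. Signals have arbitrary units, and no gene's level was compared with another's. Log2 ratios are TG over NTG on the same array, and a gene was counted as past the cutoff above 1.5-fold (0.58 on the log2 scale) or below its inverse. The NTG RNA was read once on the L9 array and once on the L19 array. Over all genes these readings differed with an SD of 0.27 on the log2 scale, and the log2 ratios of L9 and L19 differed with an SD of 0.42. All readings of the 10 genes were above background, the lowest at 15.2 times the lowest detected signal of its channel.

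Of the 10 genes, 3 were past 1.5-fold above NTG in L9 (Nqo1, Aox1 and Ephx1), against 10.6% of all 17485 genes, and 2 in L19 (Bach1 and Aox1), against 9.77% of all genes. Aox1 alone was past the cutoff in both lines, whose ratios share the NTG RNA, and 5.2% of all genes were so in this direction. None of the 10 was past the cutoff below NTG in either line, against 7.47% of all genes in L9 and 7.61% in L19. Over all genes, 910 were past the cutoff above and 530 below NTG in both lines, against 857 above and 21 below with normexp, a model of background that uses the local background of each spot. In L9, 5 of the 10 were above NTG at any size (48.7% of all genes), and in L19 7 were (48.5% of all genes). For the 10 genes the log2 ratios had a median of 0.03 over L9 and 0.21 over L19, and 0.17 for the mean of the lines, against -0.01 for all genes.
The test of the mean of both lines against 0 (limma across all 17485 genes, Benjamini-Hochberg adjusted) called 0 of the 10 genes and 0% of all genes in either direction, with a smallest adjusted p of 0.0856. At an unadjusted p under 0.05 it took 2 of the 10, Aox1 and Ephx1, both above NTG, against 15.7% of all genes above and 14.4% below. With robust estimation and a variance trend over signal, limma called these 2, against 10.5% of all genes above and 9.59% below NTG. The test rests on 2 TG hearts, holds no estimate of how NTG mice vary (with the NTG RNA taken as 1 sample), and cannot separate a dye effect from the transgene. An exact permutation test over 2 ratios cannot pass 0.05 and was not used.

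**Figure D1:**
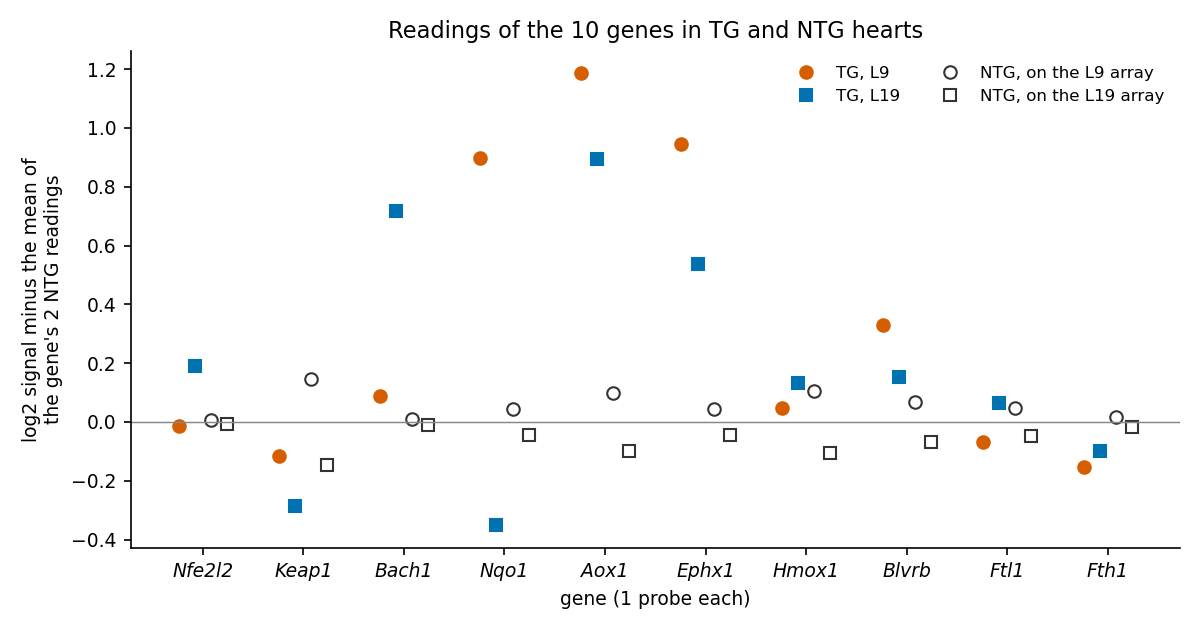
Log2 signal of each gene in TG hearts (filled, L9 and L19) and of the NTG RNA (open, read on both arrays), each minus the mean of the gene's 2 NTG readings, with the L19 array shifted by the median difference of the NTG readings. Each point is 1 reading of 1 probe and there are no error bars. Both TG readings of Aox1 and Ephx1 lie well above their NTG readings, the Nqo1 readings of L9 and L19 lie on opposite sides of NTG, and the TG and NTG readings of Nfe2l2, Hmox1 and Ftl1 overlap.

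Nfe2l2, the NRF2 gene itself (chr2:75675513-75704663), had a signal of 184 in the L9 heart and 229 in the L19 heart, against 186 and 200 in the NTG RNA on the same arrays. The TG readings lay on both sides of the NTG readings, and the L9 reading was 98.7% of NTG. The log2 ratio was -0.02 in L9 and 0.20 in L19, with a mean of 0.09 ± 0.15 (SD, n = 2 lines), adjusted p = 0.650 by limma. This value depended on the background correction, as the mean ratio was 0.64 (adjusted p = 0.0068 by limma) with normexp. Under that setting the upper 50% of signal, which holds this gene, had a median log2 ratio of 0.21. Of all genes, limma then called 2922 above and 440 below NTG.
Keap1, which encodes the adaptor that presents NRF2 to the ligase (chr9:21229730-21239332), had a signal of 120 in L9 and 115 in L19, against 144 and 127 in NTG. Both TG readings were below the NTG reading of their own array. After alignment of the arrays, however, the NTG readings of this probe differed from each other by 0.29 on the log2 scale, the widest gap among the 10 genes, and the groups overlapped. The mean log2 ratio was -0.20 ± 0.09 (SD, n = 2), adjusted p = 0.306 by limma, and it was above 0 with normexp, at 0.17.
Bach1, the heme-sensing repressor (chr16:87698954-87733346), had a signal of 48.7 in L9 and 81.5 in L19, against 46.1 and 49.2 in NTG. Only the L19 heart stood apart, with a log2 ratio of 0.73 (1.66-fold) against NTG, while that of L9 was 0.08 (1.06-fold). The mean was 0.40 ± 0.46 (SD, n = 2), adjusted p = 0.266 by limma.
Among the 3 regulator genes, then, none was past the cutoff in both lines, and the L19 ratio of Bach1 was the single one past it in a line. This depended on the background correction. With normexp the L19 ratio of Bach1 was 0.55, short of the cutoff, and the L9 ratio of Nfe2l2 was 0.73, past it.

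Aox1 encodes an aldehyde oxidase, a molybdenum enzyme that oxidizes aldehydes and aromatic heterocycles, and lies at chr1:58029809-58106410. Its signal was 322 in L9 and 285 in L19, against 152 and 143 in NTG. Both TG readings were above both NTG readings. The log2 ratio was 1.09 in L9 (2.12-fold) and 0.99 in L19 (1.99-fold), with a mean of 1.04 ± 0.07 (SD, n = 2), or 2.06-fold, and a standard error of 0.11 in limma. The adjusted p was 0.0856 by limma (unadjusted 0.0012), and 9.1e-04 in limma with the trend and robust estimation. Of all genes, 97.8% had a lower mean ratio.
Ephx1 encodes microsomal epoxide hydrolase, which opens reactive epoxides with water, and lies at chr1:180989556-181017569. Its signal was 458 in L9 and 373 in L19, against 245 and 249 in NTG. Both TG hearts were above both NTG readings, L9 by a log2 ratio of 0.90 (1.87-fold) and L19 by 0.58. The L19 value of 1.497-fold fell just short of the cutoff. The mean was 0.74 ± 0.23 (SD, n = 2), or 1.67-fold, adjusted p = 0.0964 by limma, and 0.0044 in limma with the trend and robust estimation.
Nqo1 encodes NAD(P)H quinone dehydrogenase, a flavoenzyme that reduces quinones without a semiquinone step and is widely read as an indicator of NRF2 activity. It lies at chr8:107388225-107403205. Its signal was 387 in L9 and 176 in L19, against 214 and 218 in NTG. The L9 heart was above and the L19 heart below both NTG readings, which themselves were close together. The log2 ratio was 0.85 in L9 (1.81-fold) and -0.31 in L19 (80.9% of NTG), so that the mean of 0.27 ± 0.82 (SD, n = 2; adjusted p = 0.595 by limma) describes neither heart.
The L9 ratio of Nqo1 was past the cutoff with each of the 4 background treatments, at 0.84 to 1.16, while the L19 ratio was 0.21 with normexp and thus on the other side of NTG.

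**Figure D2:**
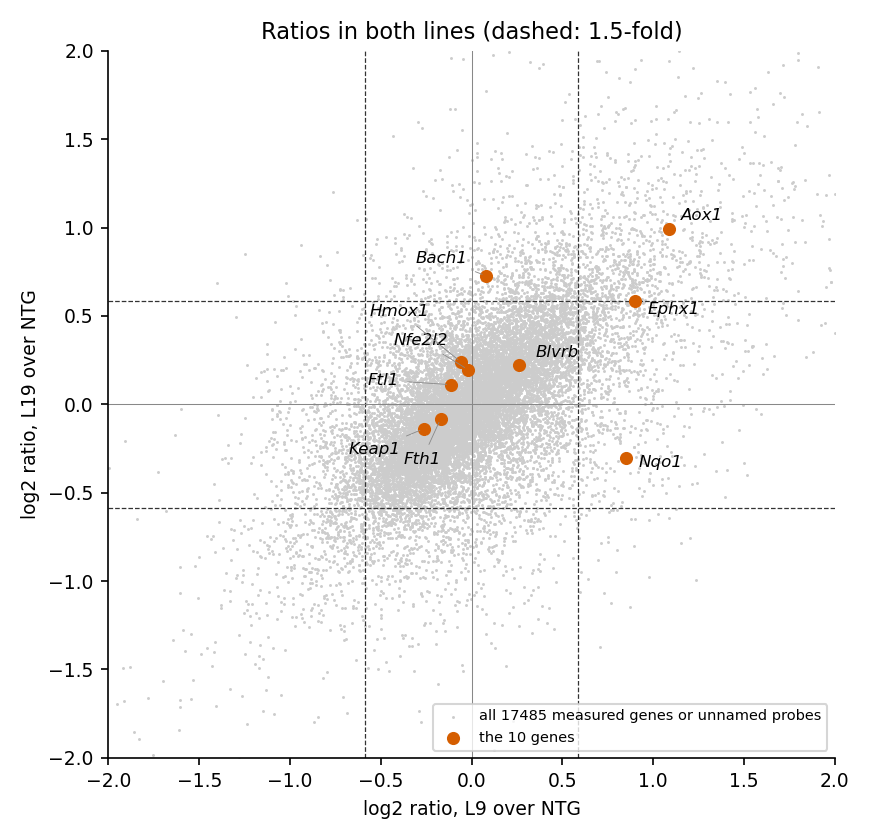
Log2 ratio over NTG in L9 (x axis) and L19 (y axis) for all 17485 measured genes or unnamed probes (grey) and the 10 genes (orange, named), with dashed lines at 1.5-fold and 108 features outside the axes. Both axes share the NTG RNA. Aox1 is the only 1 of the 10 in the upper right field, Ephx1 lies on its edge, Nqo1 is high in L9 alone, and Bach1 is high in L19 alone.

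Hmox1, the inducible heme oxygenase that splits heme into biliverdin, iron and carbon monoxide (chr8:75093618-75100593), had a signal of 62.5 in L9 and 71.8 in L19, against 65.1 and 60.9 in NTG. The groups overlapped. Its log2 ratio was -0.06 in L9 and 0.24 in L19, with a mean of 0.09 ± 0.21 (SD, n = 2), adjusted p = 0.671 by limma.
Blvrb, whose product biliverdin reductase B is an NADPH-dependent flavin reductase (chr7:27447978-27465981), had a signal of 120 in L9 and 115 in L19, against 99.9 and 98.2 in NTG. Both TG readings lay above both NTG readings by a small margin. The log2 ratio was 0.26 in L9 and 0.22 in L19, with a mean of 0.24 ± 0.03 (SD, n = 2), or 1.18-fold, adjusted p = 0.232 by limma.
The ferritin light chain gene Ftl1 (chr7:45457944-45459886) had a signal of 1119 in L9 and 1326 in L19, against 1212 and 1228 in NTG. Its log2 ratio was -0.11 in L9 and 0.11 in L19, and the TG readings lay on both sides of the NTG readings. The mean was -0.0015 ± 0.16 (SD, n = 2), adjusted p = 0.995 by limma.
The ferritin heavy chain gene Fth1, whose product oxidizes iron for storage in the ferritin shell (chr19:9980600-9985111), had a signal of 15509 in L9 and 17455 in L19, against 17449 and 18459 in NTG. The log2 ratio was -0.17 in L9 and -0.08 in L19, with a mean of -0.13 ± 0.06 (SD, n = 2), adjusted p = 0.486 by limma. After alignment of the arrays both TG readings were below both NTG readings. The direction of Fth1 and Ftl1 was not settled, since the sign of their mean ratios depended on the processing. With loess the means were 0.07 for Fth1 and 0.0070 for Ftl1, which was still at -0.10 in L9 and 0.11 in L19. With normexp the means were 0.50 for Fth1 (adjusted p = 0.013 by limma) and 0.51 for Ftl1 (adjusted p = 0.060 by limma). Under normexp the upper 50% of signal, which holds both genes, had a median log2 ratio of 0.21. Ferritin genes have many processed copies in the genome, and cross-hybridization was not tested.
Over the 10 genes, both TG readings lay above both NTG readings for 4 (Bach1, Aox1, Ephx1 and Blvrb), against 27.9% of all genes, and below them for 1 (Fth1), against 30.6% of all genes. For the other 5 the ranges of the readings overlapped, as for Nqo1, with 1 TG reading above and 1 below both NTG readings.

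**Figure D3:**
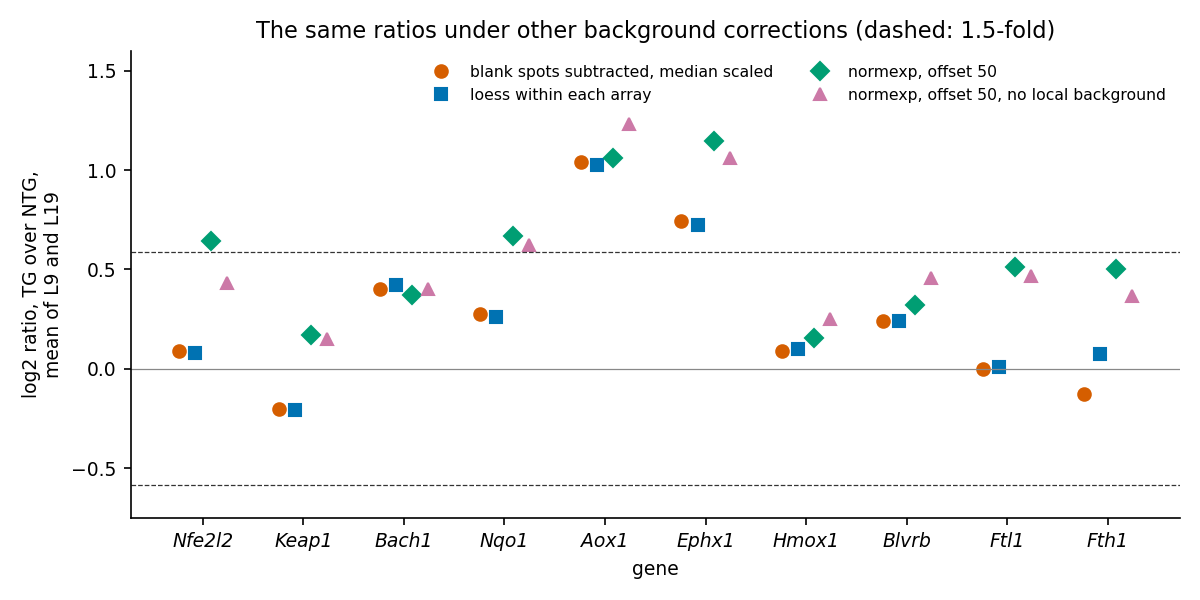
Mean log2 ratio of L9 and L19 over NTG for each gene under 4 treatments of the spots: blank spots subtracted with median scaling, loess within each array, normexp, and normexp without the local background (offset 50 in both). Dashed lines are 1.5-fold and no error is drawn. Aox1 stays between 1.03 and 1.23 and Ephx1 between 0.73 and 1.15, while Keap1, Ftl1 and Fth1 lie on both sides of 0.

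The difference between L9 and L19 was set beside the same difference over all genes. It was a log2 value of 1.16 (L9 minus L19, 2.23-fold) for Nqo1, and 2.21% of all genes had a difference at least as large in either direction. Of all genes, 1.44% were past 1.5-fold above NTG in L9 and below NTG in L19, as Nqo1 was. After alignment of the arrays, the NTG readings of Nqo1 were 0.09 apart on the log2 scale. Its TG readings, minus the mean of the NTG readings, were then 0.90 in L9 and -0.35 in L19. Bach1 followed with -0.65, and 11.1% of all genes differed by at least as much. These were the 2 genes of the 10 whose lines differed by more than 1.5-fold, against 13.4% of all genes.
The other differences were -0.30 for Hmox1, 0.32 for Ephx1, -0.23 for Ftl1, -0.21 for Nfe2l2, -0.13 for Keap1, 0.09 for Aox1, -0.09 for Fth1 and 0.04 for Blvrb. Each was smaller than the SD of the difference over all genes. With 1 heart per line, a difference between lines cannot be told apart from a difference between 2 mice, and none was tested.

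The rest of the NRF2 system was described by lists from general knowledge. These lists were chosen with earlier results of these data known, so their counts are a description and not a test. A list of 50 other NRF2 target genes, most of them for glutathione, thioredoxin, NADPH and conjugation, had 44 measured members. Their median log2 ratio was 0.40 in L9 and 0.31 in L19, and 0.41 for the mean of the lines (0.46 with normexp), against 0.17 for the 10 genes and -0.01 for all genes. In both lines, 11 of the 44 were past 1.5-fold above NTG (background 5.2% of all genes) and 1 below (background 3.03%). limma called 0 of the 44, and limma with the trend and robust estimation called 19 above and 0 below NTG (10.5% and 9.59% of all genes).
The 5 with the highest mean ratio were Aldh3a1, Srxn1, Ptgr1, Txnrd1 and Gstm2. Srxn1, which encodes the enzyme that repairs overoxidized peroxiredoxins, had a signal of 219 in L9 and 170 in L19, against 63.9 and 73.0 in NTG, and a mean log2 ratio of 1.496 ± 0.39 (SD, n = 2; adjusted p = 0.0856 by limma). Txnrd1, the gene of cytosolic thioredoxin reductase, had 628 in L9 and 420 in L19, against 233 and 199 in NTG, and a mean of 1.26 ± 0.25. Ptgr1, the gene of a reductase of lipid aldehydes and ketones, had a mean of 1.41 ± 0.28. Gstm2, a glutathione transferase gene, had 1.24 ± 0.33. With normexp these means were 1.03 for Srxn1, 1.23 for Txnrd1, 0.75 for Ptgr1 and 0.26 for Gstm2. Normexp adds an offset of 50 to each channel, and the Gstm2 signals were 27.7 and 52.2 in TG against 13.8 and 18.8 in NTG. Aldh3a1, an aldehyde dehydrogenase gene, had the highest mean at 1.80 ± 0.67, but its signals were low, at 7.10 and 5.89 in TG against 1.47 and 2.35 in NTG, and its ratio with normexp was -0.04.
The 1 target below NTG past the cutoff in both lines was Slc7a11, the gene of the cystine transporter subunit, at -1.03 ± 0.35, or -0.22 with normexp, and with signals of 8.52 or less.

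Regulators and partners of NRF2 formed a list of 26 genes with 21 measured. Its median was 0.24 in L9 and 0.07 in L19, and 3 of the 21 were past 1.5-fold above NTG in both lines (Sqstm1 and Txnrd1, which are also in the list of targets, and Maff) and 0 below, against 5.2% and 3.03% of all genes. limma called 0 of the 21, and limma with the trend and robust estimation called 5 above and 2 below NTG, against 10.5% and 9.59% of all genes. Sqstm1, the gene of the autophagy receptor p62, which competes with NRF2 for KEAP1, had a signal of 1541 in L9 and 1553 in L19, against 866 and 924 in NTG. Its mean log2 ratio was 0.79 ± 0.06 (SD, n = 2; adjusted p = 0.0856 by limma). Maff, the gene of a small MAF partner, had 62.3 in L9 and 116 in L19, against 39.1 and 42.3 in NTG, with a mean of 1.06 ± 0.55. Cul3, the ligase scaffold gene, had 433 and 414 in TG, against 454 and 414 in NTG, with a mean of -0.03 ± 0.05. Nfe2l1, which encodes the related factor NRF1, had 423 and 355 in TG, against 528 and 585 in NTG, with a mean of -0.52 ± 0.28 (adjusted p = 0.139 by limma). Bach2, the paralog of Bach1, had a mean of -0.06 ± 0.10. With normexp the mean was 1.78 for Sqstm1, 0.49 for Maff, 0.62 for Cul3 and -0.06 for Nfe2l1.

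Genes of heme and iron handling other than the members gave a list of 39, of which 33 were measured, and their log2 ratios had a median of 0.12 over L9 and -0.10 over L19. None of the 33 was past 1.5-fold above NTG in both lines (5.2% of all genes), and 1 was below (3.03% of all genes), Steap3, the gene of a ferrireductase, at -0.81 ± 0.07, or -0.25 with normexp. limma called 0, and limma with the trend and robust estimation called 6 above and 4 below NTG, against 10.5% and 9.59% of all genes. Hmox2, the constitutive heme oxygenase gene, had a mean of 0.34 ± 0.08, and Blvra, the gene of the major adult biliverdin reductase, 0.19 ± 0.10.
The list of other xenobiotic and quinone enzymes held 28 genes with 19 measured, and its median was 0.06 in L9 and -0.02 in L19. In both lines, 2 of the 19 were past 1.5-fold above NTG and 0 below, against 5.2% and 3.03% of all genes. limma called 0, and limma with the trend and robust estimation called 3 above and 0 below, against 10.5% and 9.59% of all genes. These 2 were Cyp1b1, a cytochrome P450 gene, at 1.28 ± 0.07 but at -0.11 with normexp, and Akr1a1, an aldehyde reductase gene, at 0.72 ± 0.09. Signals of Cyp1b1 were 30.7 in L9 and 36.0 in L19, against 13.1 and 14.3 in NTG, and normexp adds an offset of 50. The closest paralogs of the enzyme genes had mean log2 ratios of -0.12 ± 0.03 for Nqo2, -0.21 ± 0.07 for Ephx2, 8.0e-05 ± 0.52 for Xdh and -0.20 ± 0.67 for Aox3, and none was called. With normexp Nqo2 (0.38) and Ephx2 (0.44) were above 0.

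**Figure D4:**
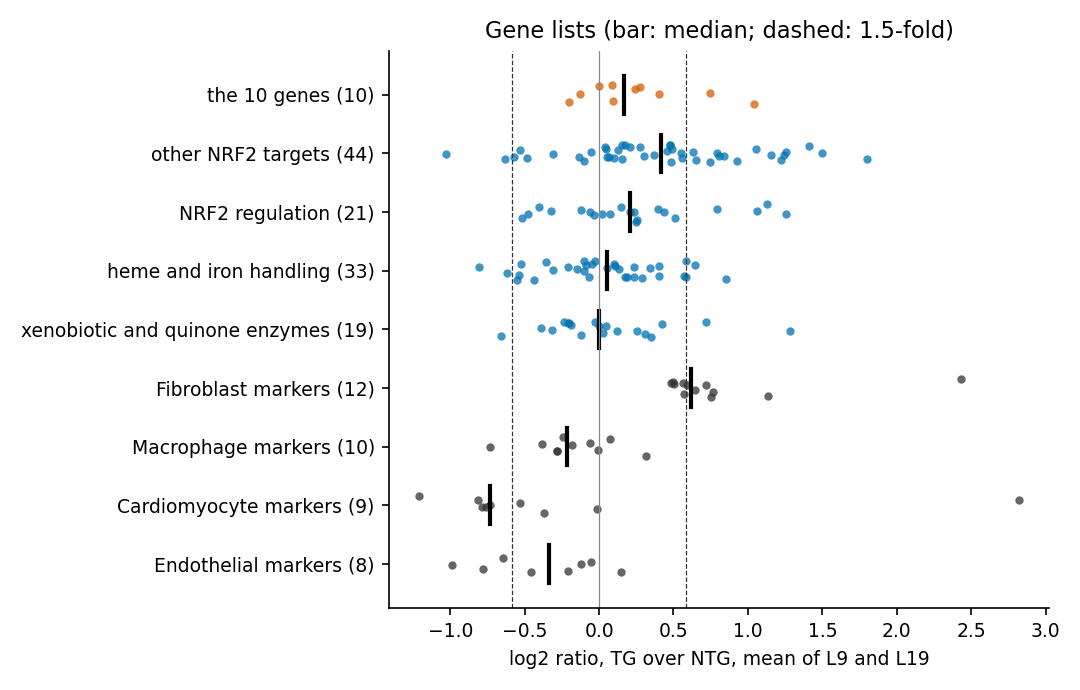
Mean log2 ratio of L9 and L19 over NTG for each measured gene (points) of the 10 genes, the 4 lists of other genes and 4 lists of cell type markers, with the number measured in parentheses. Bars are medians and dashed lines 1.5-fold. The medians are 0.17 for the 10 genes, 0.41 for other NRF2 targets, 0.21 for NRF2 regulation and 0.05 for heme and iron handling, and those of the fibroblast and cardiomyocyte markers lie on opposite sides of 0. The cardiomyocyte marker Nppa lies above 0.

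The hearts are mixed tissue, so fewer cells of a type and less RNA per cell cannot be told apart. Of 12 fibroblast markers, all measured, 9 were past 1.5-fold above NTG in L9 (10.6% of all genes) and 6 in L19 (9.77% of all genes), with a median log2 ratio of 0.62. Their summed signals were 12885 and 14274 in TG, against 7400 and 9213 in NTG. Of 9 measured cardiomyocyte markers, 6 were past 1.5-fold below NTG in L9 (7.47% of all genes) and 4 in L19 (7.61% of all genes), with a median of -0.73. The summed signals of the cardiomyocyte markers were 120399 and 138295 in TG, against 205719 and 213312 in NTG. Nppa, the atrial natriuretic peptide gene, was the only cardiomyocyte marker past the cutoff above NTG in both lines. Of 10 measured macrophage markers, none was past the cutoff in L9, and 4 were below it in L19, against 7.61% of all genes. The L9 median of this list was 0.18 and the L19 median -0.50, with summed signals of 1358 and 1006 in TG, against 1162 and 1243 in NTG. The median was -0.34 for 8 endothelial, -0.07 for 7 smooth muscle, -0.69 for 4 adipocyte and 0.08 for 3 erythroid markers, and 1 hepatocyte marker was measured, Ttr, at 1.33. With normexp the median was 1.03 for fibroblast, -0.10 for cardiomyocyte, 0.08 for macrophage, 0.11 for smooth muscle, -0.13 for erythroid, -0.02 for endothelial and -0.04 for adipocyte markers, and Ttr was at 0.07. Rhag, Lep and Apoa1 were at background in all channels. The part of these cell types in the ratios of Aox1, Ephx1, Nqo1 and Bach1 was not tested.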

How the data were processed

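Total RNA of L9, L19 and NTG hearts was labeled and hybridized on 2 arrays, 1 for each line. The scanner files that the authors deposited hold uncorrected median spot intensity values for Cy5 and Cy3, written by 3D-Gene Extraction software, release not given in the sources used here. A second deposited table holds log2 ratios, made by global normalization to a median ratio of 1. These ratios were recomputed as Cy3 (TG) over Cy5 (NTG), and all but 1 probe on each array agreed within 0.001.

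Background per channel was the trimmed mean (5% off each end) of 2736 blank spots, and detection required a signal above this mean plus 2 SD in both channels. This gave ratios for 18441 probes in L9 and 18824 in L19. The median ratio before scaling was 2.02 in L9 and 1.83 in L19. The local background of the files was left out, as it tracked the spots themselves (r of 0.942 to 0.975 over spots, as a description). Spots that the scanner marked as bad were dropped (9 on the L9 array, 3 on the L19 array), and 1 gene spot on each array was saturated. Of 23473 probes, 16631 had 1 platform symbol and 6842 had none. Of the symbols, 12622 were current and 3947 were updated through RefSeq (GRCm38.p6), from which coordinates were taken. For the 229 genes with several probes the brightest was used.

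The mean log2 ratio of both lines was compared with 0 in limma 3.58.1 (R 4.3.3; step tested on simulated data first), with Benjamini-Hochberg adjustment over 17485 genes or unnamed probes. With the NTG RNA taken as 1 sample, this leaves out the spread between controls, and the number of arrays limits the precision. The cutoff of 1.5-fold is the study's. The 10 genes and all lists were chosen with earlier results of these data known. Of the lists, genes past 1.5-fold in both lines were named, at most the 5 farthest from 0, besides Sqstm1, Cul3 and paralogs of the 10 genes. Alternatives were loess, normexp with an offset of 50, the deposited ratios, the upper 50% of signal, the mean of all probes, 2-fold, each line left out, and limma with a trend and robust estimation together. Normexp without local background was added after the values were seen. Python 3.11.15, numpy 2.4.6 and pandas 2.3.3 were used.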

Additional observations from a re-analysis of the deposited data

Results flagged for a closer look

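Of the 10 genes, 4 had a ratio above NTG in 1 line and below NTG in the other. The difference between the lines was not tested for any of them, as each line had 1 heart. The Nqo1 log2 ratio was 0.85 in L9 but -0.31 in L19, a difference of 1.16 (L9 minus L19). With normexp its ratios were 1.13 in L9 and 0.21 in L19, so the lines were then on the same side. Hmox1 had -0.06 in L9 and 0.24 in L19, a difference of -0.30. Ftl1 had -0.11 in L9 and 0.11 in L19, a difference of -0.23. Nfe2l2 had -0.02 in L9 and 0.20 in L19, a difference of -0.21. Over all genes, 26.1% had ratios on opposite sides of NTG, and the difference of the lines had an SD of 0.42, which only that of Nqo1 among these 4 exceeded.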

How the results depend on the processing

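With normexp (offset 50) the median log2 ratio of all genes was 0.01, but that of the upper 50% of signal was 0.21 and that of the other genes -0.11, against -0.01 for both under the main processing. The mean log2 ratio with normexp was 0.64 for Nfe2l2 (adjusted p = 0.0068 by limma), 1.06 for Aox1 (0.0027) and 1.15 for Ephx1 (0.0027), and it changed sign for Keap1 (0.17), Ftl1 (0.51) and Fth1 (0.50, adjusted p = 0.013 by limma), so that 4 of the 10 genes passed. Of all genes, 2922 above and 440 below NTG passed with normexp. The difference of L9 minus L19 became 0.18 for Nfe2l2, -0.35 for Bach1, -0.24 for Blvrb and -0.61 for Ftl1. With normexp without local background, added after the values were seen, the ratios were 0.43 for Nfe2l2, 0.40 for Bach1, 0.62 for Nqo1, 1.23 for Aox1, 1.06 for Ephx1, 0.25 for Hmox1 and 0.46 for Blvrb, and they changed sign for Keap1 (0.15), Ftl1 (0.46) and Fth1 (0.36). No limma call of the 10 genes is given for this setting, because the share of all genes that passed under it was not counted. The median log2 ratio of the upper 50% of signal was 0.26 under it. Loess changed the sign of Ftl1 (0.0070) and Fth1 (0.073). The cause of these shifts was not tested. Aox1 (1.04) and Ephx1 (0.74) passed limma among the upper 50% of signal (adjusted p = 0.0102 and 0.0178) and with the trend and robust estimation, in the first case with fewer genes tested. In the upper 50% of signal, taken from all 17485 genes, limma called 1250 genes above and 1287 below NTG. With the trend and robust estimation it called 10.5% of all genes above and 9.59% below. The deposited ratios and the mean of all probes changed no call or direction of the 10 genes.

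With each line left out in turn, the ratio ran between -0.019 and 0.20 for Nfe2l2, -0.31 and 0.85 for Nqo1, -0.057 and 0.24 for Hmox1, and -0.11 and 0.11 for Ftl1, while the other 6 kept their sign. A single array leaves no test.

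Of the 10 genes, 1 was past the cutoff above NTG in both lines, against 2 with normexp, 0 at 2-fold and 2 to 3 with a line left out. Of 63 other NRF2 pathway genes, 12 were above it, against 6 at 2-fold and 18 to 19 with a line left out. Below NTG 1 was past it, against 0 with normexp, the upper 50% or 2-fold, and 2 to 6 with a line left out. Of all genes, 910 were above it, against 352 in the upper 50%, 219 at 2-fold and 1709 to 1857 with a line left out. Below it were 530, against 21 with normexp, 256 in the upper 50%, 99 at 2-fold and 1307 to 1330 with a line left out. limma called 0 genes above and 0 below NTG, against 2922 and 440 with normexp, 1250 and 1287 in the upper 50%, and 1831 and 1677 with the trend and robust estimation, and at an unadjusted p under 0.05 it took 2745 and 2521. Each ratio sets a TG heart against the NTG RNA on its own array. TG hearts were not paired with separate NTG mice, because the NTG RNA was taken as 1 sample and the groups share no replicate numbers.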
